A study of Bos taurus with 6 samples.

Results

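The cells described here were the T-cells of bovine distal pulmonary arteries (dPAs) whose score for S phase or score for G2/M phase was at least 0.1. They were found by that rule in the table of T-cells, whatever their subcluster or called phase, and they are called scored cells below. There were 165 of them among 877 T-cells (18.8%, exact binomial 95% interval 16.3 to 21.6%). The other 712 T-cells had both scores under 0.1 and served as the comparison.

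The arteries, under 2 mm wide, came from male Holstein calves labelled as 2 weeks old, and each library was made from 1 calf. Control calves (CO) were healthy, and PH calves had pulmonary hypertension after 14 days of hypoxia. The T-cells came from 2 CO calves (replicates 1 and 2) and 3 PH calves (replicates 1, 2 and 3), while the third labelled CO calf was not analysed here. The calf is the replicate in every comparison, since cells of 1 calf share their animal and library.

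A dividing cell copies its DNA in S phase, then prepares for and completes mitosis in G2 and M. Most resting T-cells stay outside this cycle, and T-cells that meet their antigen with co-stimulation enter it and expand into clones. In single-cell RNA data a cell cycle score is the mean level of a list of phase genes in a cell minus the mean level of control genes of similar abundance, so a score near 0 means that the phase genes were no higher than the control genes. Neither the lists behind the deposited scores nor the set of cells used to compute them is given in the sources used here. Rows of the deposited expression table carry no gene names, so neither phase genes nor T-cell markers could be looked up in the scored cells, and no row is named.

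Sequencing depth ran from 516 to 27584 unique molecular identifiers (UMIs, each marking 1 captured RNA molecule) per T-cell, with a median of 5207. The medians of the calves were 6856 in CO replicate 1, 5721 in CO replicate 2, 4198 in PH replicate 1, 3740 in PH replicate 2 and 10977 in PH replicate 3, so PH replicate 3 stood above the rest. It also held only 16 T-cells, against 50, 437, 157 and 217 in the other calves in the same order. No cell barcode was shared between libraries (0). Cells could not be thinned to equal depth without raw UMIs for each gene, which were not analysed here, so depth was matched or printed instead.

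Scores above the threshold were mostly low. Of the 165 scored cells, 90 reached 0.1 by the S score alone, 46 by the G2/M score alone and 29 by both. The larger of both scores lay between 0.1 and 0.15 in 89 cells, between 0.15 and 0.2 in 39, between 0.2 and 0.3 in 17 and at 0.3 or more in 20. The highest S score was 0.670 and the highest G2/M score 0.553, and both were in CO replicate 2. The threshold cut through a dense range. There were 26 cells within 0.01 above it and 32 within 0.01 below it, and the nearest values were 0.1004 inside and 0.0997 outside.

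The upper end of both scores was longer than the lower end. The S score was at least 0.1 in 119 cells and at most -0.1 in 3, and the G2/M score was at least 0.1 in 75 cells and at most -0.1 in 1. Medians over all T-cells were 0.0142 for the S score and 0.0187 for the G2/M score. Pearson's r between the scores over the cells of a calf, given as a description, was -0.15 in CO replicate 1, 0.32 in CO replicate 2, 0.21 in PH replicate 1, 0.33 in PH replicate 2 and 0.75 over the 16 cells of PH replicate 3.

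**Figure D1:**
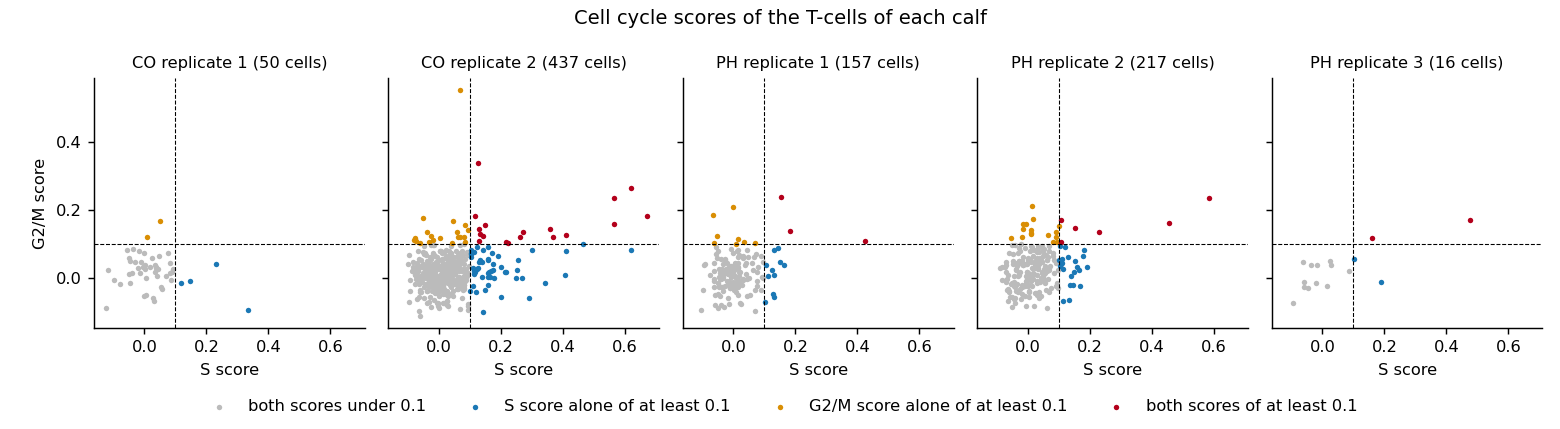
S score (x axis, no unit) against G2/M score (y axis, no unit) of every T-cell, 1 panel per calf, with dashed lines at 0.1. Grey points have both scores under 0.1, blue and orange points pass by 1 score and red points by both, and the long tail to the right lies mainly in CO replicate 2.

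The deposited phase call covered many more cells than the threshold did. S or G2/M was called in 738 T-cells, of which 165 (22.4%) were scored cells. In all 877 cells the call followed from the signs and order of the scores, with G1 where both were below 0, so a score barely above 0 was enough for a call. None of the 139 cells called G1 was scored (0), as the rule makes certain. Among the 29 cells with both scores at 0.1 or more, 23 were called S and 6 G2/M.

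Scored cells were present in all 5 calves. They made up 6 of 50 T-cells in CO replicate 1 (12%), 89 of 437 in CO replicate 2 (20.4%), 22 of 157 in PH replicate 1 (14%), 44 of 217 in PH replicate 2 (20.3%) and 4 of 16 in PH replicate 3 (25%). The groups overlapped, with 1 calf of each near 20% and 1 of each under 15%. Mean shares were 16.2% ± 5.92 (SD, n = 2) for CO and 19.8% ± 5.51 (SD, n = 3) for PH. The PH mean was 3.58 percentage points higher (exact permutation test, two-sided, p = 0.5, adjusted p = 0.7 over 7 tests). With 2 against 3 calves this test cannot give a p under 0.1. Without CO replicate 1 the difference was -0.603 points, and at a threshold of 0.05 it was -4.94 points, so its direction was not stable.

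The scores taken singly gave the same picture. S scores of at least 0.1 were held by 8 and 15.8% of the cells of the CO calves (replicates 1 and 2), and by 8.92%, 12.9% and 25% in PH replicates 1 to 3. PH was higher by 3.71 points (exact permutation p = 0.8, n = 2 and 3), a difference that became -0.985 without PH replicate 3 and its 16 cells, and -0.183 without CO replicate 1. G2/M scores of at least 0.1 were held by 6.35% ± 3.32 (SD, n = 2) of cells for CO and 9.88% ± 2.76 (SD, n = 3) for PH (difference 3.53 points, exact permutation p = 0.4). It was -0.573 points among cells of middle depth (3107 to 7300 UMIs), for which 2 PH calves had enough cells.

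The 4 T-cell subclusters of the deposited annotation held scored cells in unequal shares. Subcluster 1 had 65 of 270 cells scored (24.1%) and subcluster 3 had 42 of 173 (24.3%), against 32 of 268 (11.9%) in subcluster 2 and 26 of 166 (15.7%) in subcluster 4. Subcluster 3 exceeded subcluster 2 in each of the 4 calves that had cells in both, with 25 against 8.33% in CO replicate 1, 25.2 against 11.9% in CO replicate 2, 14.3 against 9.43% in PH replicate 1 and 25 against 15.4% in PH replicate 2. Subcluster 1 exceeded subcluster 2 in CO replicate 1, CO replicate 2 and PH replicate 2 but not in PH replicate 1, where the shares were 8.33 and 9.43%. These are descriptions with no test, and the exact binomial intervals of single calves were wide, such as 5.49 to 57.2% for the 12 cells of subcluster 3 in CO replicate 1.

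Composition by score type also varied with the subcluster. Cells with both scores made up 19 of the 65 scored cells of subcluster 1, but 4 of 32, 4 of 42 and 2 of 26 in subclusters 2, 3 and 4. In subcluster 3, 29 of 42 scored cells passed by the S score alone, of which 22 were from CO replicate 2.

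Between conditions, the subclusters did not move one way. Subcluster 4 had 0 of 9 cells scored in CO replicate 1, which allows a share of up to 33.3% by the limit of 3 counts, and 9.62% in CO replicate 2, against 22.2% in PH replicate 1 and 18.8% in PH replicate 2. Both PH values lay above both CO values, a difference of 15.7 points (exact permutation p = 0.333, the smallest that 2 against 2 calves allow, adjusted p = 0.889 over the 4 subclusters). PH replicate 3 had 3 cells of subcluster 4, none of them scored (0), and was under the minimum of 5 cells. PH minus CO was -2.97 points in subcluster 1, 2.29 in subcluster 2 and -5.47 in subcluster 3, with exact permutation p of 0.9, 0.667 and 0.667. These subcluster tests were chosen after the data were seen.

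**Figure D2:**
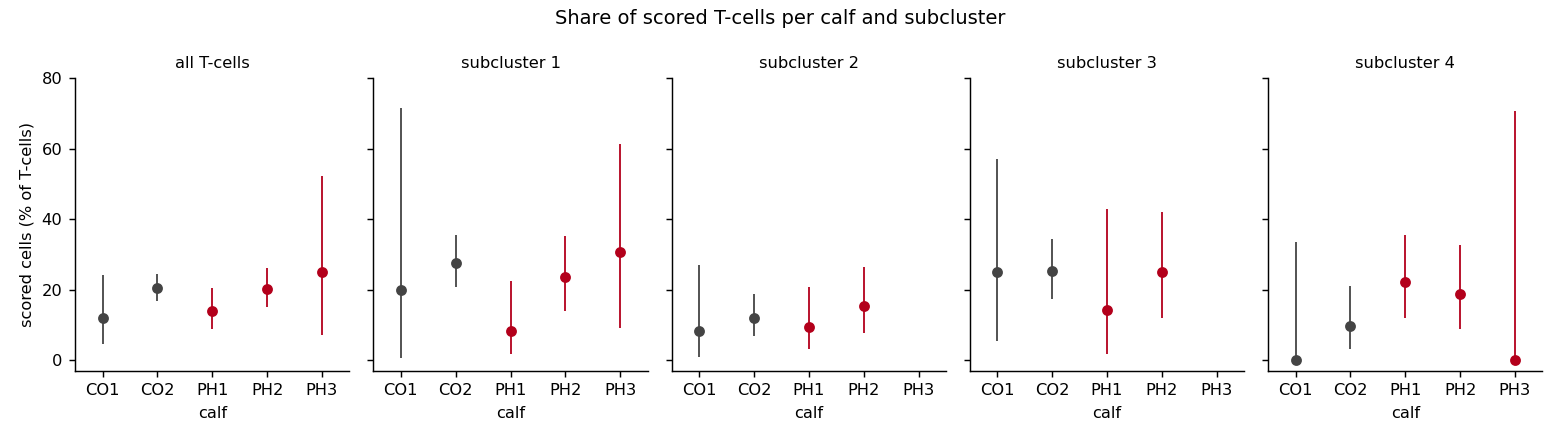
Share of scored cells in percent (y axis) for each calf (x axis; CO in grey, PH in red) over all T-cells and within each subcluster, with exact binomial 95% intervals that cover counting error only. CO and PH calves overlap over all T-cells, and in subcluster 4 PH replicates 1 and 2 (22.2 and 18.8%) lie above both CO calves, while PH replicate 3 is at 0 of 3 cells.

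The 20 cells with a score of 0.3 or more stood apart from the other scored cells. The S score was the larger in 18 of them and the G2/M score in 2, and 12 had both scores at 0.1 or more. Subcluster 1 held 15 of the 20 (75%), against 30.8% of all T-cells. CO replicate 2 also held 15, which was 3.43% of its cells, and the other shares were 2% in CO replicate 1, 0.637% in PH replicate 1, 0.922% in PH replicate 2 and 6.25% in PH replicate 3, each of those from 1 or 2 cells. Leaving out CO replicate 2, 5 such cells remained, of which 3 were in subcluster 1.

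These cells were deep. Their median was 14593 UMIs per cell (range 1151 to 27584), against 5276 for scored cells between 0.1 and 0.15, 5559 between 0.15 and 0.2, 8083 between 0.2 and 0.3, and 5062 for cells with both scores under 0.05. The depth was over the median of their own calf in 15 of 20 and over 2 times that median in 12. In the PH calves, the 4 cells had 17142 (PH replicate 1), 15357 and 15824 (PH replicate 2) and 23351 UMIs (PH replicate 3), between 2.13 and 4.23 times the median of their calf. Of the 20 deepest T-cells, with at least 15142 UMIs, 13 were scored and 10 had a score of 0.3 or more. Depth was not a condition for a high score, since the highest G2/M score (0.553) belonged to a cell with 2654 UMIs and an S score of 0.620 to a cell with 5113 UMIs.

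A droplet that holds a pair of cells also has high depth. No doublet caller was run, how doublets were treated is not given in these sources, and whether pairs of cells were among the deep scored cells was not tested. Of the 71 cells with over 2 times the median UMIs of their calf, 24 were scored (33.8%), against 141 of 806 other T-cells (17.5%). The share was 14 of 28 (50%) against 18.3% in CO replicate 2 and 6 of 15 (40.0%) against 18.8% in PH replicate 2, but 3 of 24 (12.5%) against 14.3% in PH replicate 1 and 0 of 3 in CO replicate 1.

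**Figure D3:**
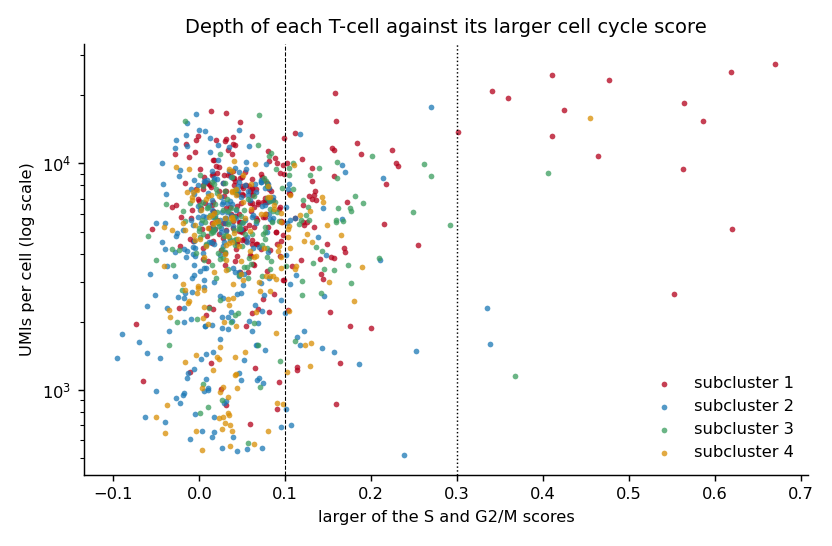
UMIs per cell (y axis, log scale) against the larger of the S and G2/M scores (x axis, no unit) for each T-cell, coloured by subcluster, with lines at 0.1 (dashed) and 0.3 (dotted). Most cells right of 0.3 are from subcluster 1 (15 of 20) and are deep (median 14593 UMIs), with a few shallow cells down to 1151.

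Over all scored cells, the difference in depth varied between calves and with the threshold. Within calf and subcluster, scored minus other cells was -0.56 on the log2 scale in CO replicate 1 (5 of its 6 scored cells, since the other was the only scored cell of its subcluster), 0.19 in CO replicate 2, 0.11 in PH replicate 1, 0.27 in PH replicate 2 and 0.62 in PH replicate 3. The mean was 0.13 ± 0.43 (SD, n = 5 calves), or 1.09-fold, with 4 of 5 calves positive (two-sided exact sign-flip permutation test, p = 0.5, smallest possible 0.0625). The mean of the PH calves was 0.52 above that of the CO calves (exact permutation p = 0.3, n = 2 and 3). The mean over all calves was 0.00 without PH replicate 3 and 0.30 without CO replicate 1. Scored cells were deeper by 0.24 with a threshold of 0.05 (5 of 5 calves, exact sign-flip permutation p = 0.0625, the smallest possible), by 0.39 with 0.15 (4 of 4 calves, p = 0.125, also the smallest) and by 0.49 against cells with both scores under 0 (3 of 4 calves).

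Depth was also set out by score type. Cells with both scores were compared within calf only, and cells with 1 score within calf and subcluster. Subcluster 1 held 19 of the 29 cells with both scores, and its other cells were the deepest. Their median was 6347 UMIs, against 3865 to 5133 in the other subclusters, so the first comparison also holds depth differences between subclusters. Cells with both scores were deeper than other cells of their calf in each of 3 calves, by 0.79 on the log2 scale in CO replicate 2 (18 cells), 0.50 in PH replicate 1 (3 cells) and 0.71 in PH replicate 2 (6 cells). Their mean was 0.67 ± 0.15 (SD, n = 3 calves; exact sign-flip permutation p = 0.25, the smallest possible). Cells that passed by 1 score gave -0.56 in CO replicate 1 (5 cells), 0.09 in CO replicate 2, 0.23 in PH replicate 1 and 0.22 in PH replicate 2, a mean near 0 that rests on CO replicate 1 (-0.01 ± 0.38, SD, n = 4 calves; exact sign-flip permutation p = 1). CO replicate 1 had no cell with both scores. Cells with the S score alone were deeper in each of 3 calves (0.13 in CO replicate 2, 0.72 in PH replicate 1 and 0.24 in PH replicate 2), and cells with the G2/M score alone in 1 of 3 (mean -0.06). These splits were made after the data were seen, and the difference between score types was not tested. The median over all calves was 9954 UMIs per cell for cells with both scores, 5381 for the S score alone and 5178 for the G2/M score alone, against 5126 for the other cells.

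The share of scored cells did not follow depth in one direction. From the lowest 25% of T-cells by depth (up to 3107 UMIs) to the highest 25% (over 7300), it went from 18.2 to 5.26% in CO replicate 1, from 19.4 to 29.8% in CO replicate 2, from 13.2 to 7.50% in PH replicate 1 and from 17.8 to 37.5% in PH replicate 2. The mean of lowest minus highest was -2.85 points ± 14.9 (SD, n = 4 calves; exact sign-flip permutation p = 0.75, smallest possible 0.125), with 2 calves on each side. Without PH replicate 2 it was 2.76 points. Cluster 33 of the finer deposited clustering, which held 131 T-cells of low depth (median 1123 UMIs) and high mitochondrial share (median 12.9%), had 22 scored cells (16.8%), against 143 of 746 (19.2%) in cluster 12.

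Matched for depth, scored cells had slightly more genes with a UMI in 4 of 5 calves. Each scored cell was set against the 5 other cells of its calf and subcluster nearest in UMIs. The log2 difference was 0.10 in CO replicate 1, 0.10 in CO replicate 2, -0.02 in PH replicate 1, 0.09 in PH replicate 2 and 0.16 in PH replicate 3. The mean was 0.08 ± 0.06 (SD, n = 5 calves), or 1.06-fold (exact sign-flip permutation p = 0.125, adjusted p = 0.656 over 7 tests). The size was not stable. At a threshold of 0.05 the mean was 0.01 with 2 of 5 calves positive, with 1 nearest cell 0.05 with 3 of 5, and at a threshold of 0.15 it was 0.15 with 4 of 4. No test over 5 calves can give a p under 0.0625.

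The mitochondrial share of UMIs was lower in scored cells at matched depth in 4 of 5 calves. Differences were -0.817 percentage points in CO replicate 1, -0.0682 in CO replicate 2, -0.575 in PH replicate 1, 0.139 in PH replicate 2 and -0.947 in PH replicate 3, with a mean of -0.454 ± 0.472 (SD, n = 5; exact sign-flip permutation p = 0.1875). The 2 calves with the most scored cells, CO replicate 2 (89) and PH replicate 2 (44), gave the values nearest to 0. The sign turned when 1 nearest cell was used in place of 5 (0.0481 points). Without cluster 33, the T-cells of low depth and high mitochondrial share, the mean was -0.157 points and 3 of 5 calves were above 0. For both measures PH and CO differed by less than the spread between calves (genes -0.02, exact permutation p = 0.8; mitochondrial share -0.0185 points, exact permutation p = 1; n = 2 and 3).

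**Figure D4:**
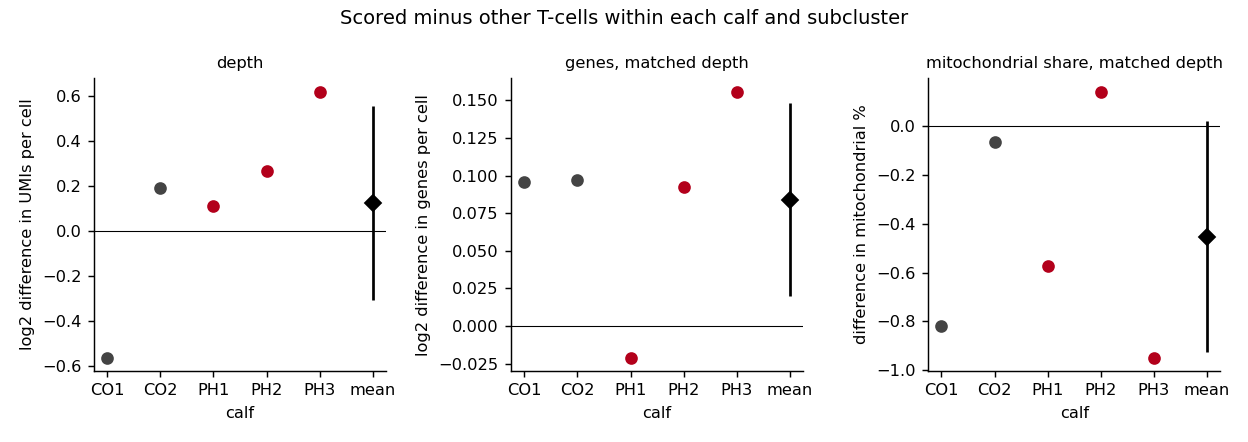
Scored minus other T-cells in each calf (x axis; CO in grey, PH in red) for depth in log2 UMIs, for genes in log2 at matched depth, and for mitochondrial share in percentage points at matched depth. The diamond and bar give the mean ± SD over 5 calves (depth 0.13 ± 0.43, genes 0.08 ± 0.06, mitochondrial share -0.454 ± 0.472). The bar shows the spread between calves and is no test, and PH replicate 1 lies below 0 for genes (-0.02).

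The deposited expression table holds 16514 rows, each a gene without its name, of which 13663 had a value above 0 in a T-cell. Its values are natural logs of a depth-corrected count plus 1. A score is computed from the expression of the same cells, so scored against other cells is described without a test. Of 4535 rows above 0 in at least 10% of scored cells, 441 (9.72%) were higher in scored cells in each of the 4 calves with at least 5 of them, and 222 (4.9%) were lower. That filter favours rows that are high in scored cells. By calf, 47.3 and 67.3% of the 4535 rows were higher in scored cells in CO replicates 1 and 2. The shares were 41.3 and 63.2% in PH replicates 1 and 2. Whether the counts of 1 sign in every calf exceed what these shares alone give was not tested. A filter on all T-cells instead of the scored ones, added after the data were seen, kept 4301 rows, of which 377 were higher and 275 lower in each of the 4 calves. At matched depth and subcluster the counts were 409 (9.02%) and 232 (5.12%). Mean differences over the 4535 rows were small. Without matching they lay between -0.46 and 0.35 on the natural log scale, with 14 rows higher and 4 lower by over 0.25. At matched depth and subcluster they lay between -0.29 and 0.36, with 22 rows higher and 5 lower by over 0.25.

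The rows that followed a score most closely were few. Over the cells of a calf, Pearson's r of a row with the S score exceeded 0.3 for 35 rows in CO replicate 2 (437 cells), 19 in PH replicate 1 (157 cells) and 37 in PH replicate 2 (217 cells), and for 10 rows in all 3. No row was under -0.3 with the S score in any of the 3 (0). For the G2/M score the counts were 6, 4 and 7, and 2 rows were shared by all 3 calves. These r values share the cells, the depth and the rows that entered the scores.

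**Figure D5:**
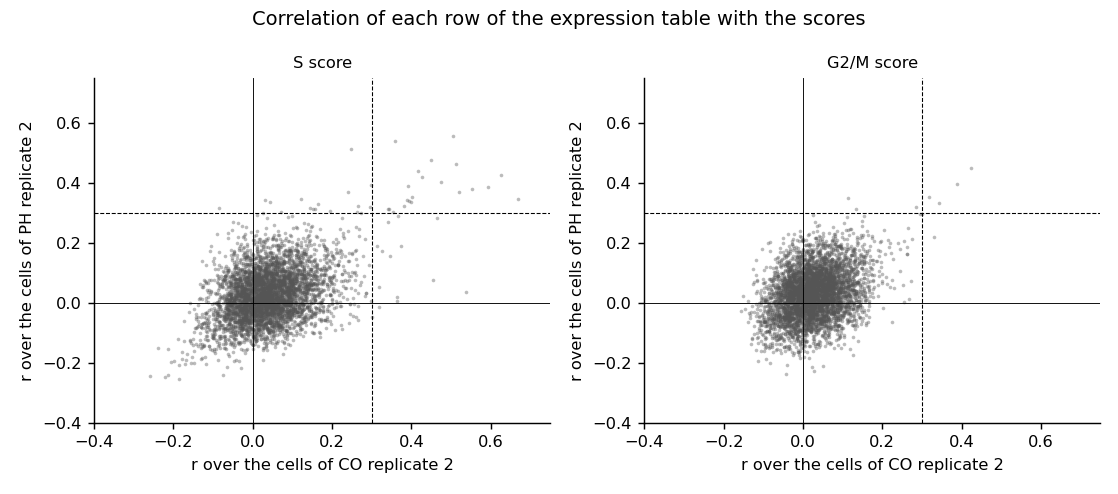
Pearson's r of each of 4535 rows of the expression table with the S score (left) and the G2/M score (right), over the cells of CO replicate 2 (x axis) and of PH replicate 2 (y axis), with dashed lines at 0.3. A thin tail of rows reaches high r in both calves for the S score, and a shorter one for the G2/M score.

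A set of 22 of the 16514 rows was above 0 in at least 50% of the 20 cells with a score of 0.3 or more. The same rows were above 0 in at most 10% of 100 matches, the 5 other cells of the same calf nearest in depth to each. These were 64 distinct cells, matched without regard to subcluster. The 100 matches had a median of 11225.5 UMIs, against 14593 in the 20 cells. Subcluster 1 held 15 of the 20, and whether depth or subcluster enters the set was not tested. The set was chosen on these values, 15 of the 20 cells came from CO replicate 2, and it gets no test. In the opposite direction, 3 rows were above 0 in at least 50% of the 100 matches and in at most 10% of the 20 cells. A cell of the 20 had a median of 15 of the 22 rows above 0 (range 2 to 19), against 1 (range 0 to 9) for the 712 other cells. Below a score of 0.3, cells with both scores had a median of 5, and cells that passed by the S score alone or the G2/M score alone had a median of 2 each. By calf, the high-scoring cells had 6 rows in CO replicate 1 (1 cell), a median of 15 in CO replicate 2 (15 cells), 17 in PH replicate 1 (1 cell), 11 and 16 in PH replicate 2 (2 cells) and 16 in PH replicate 3 (1 cell). Their matched cells had medians of 1, 1, 3, 1 and 3. The rows were chosen for detection in the 20 cells, so lower counts in the remaining scored cells were favoured in advance. Those cells were also shallower, with medians of 5276 to 8083 UMIs by score range, against 14593 in the 20 cells.

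Expression within scored cells was compared between PH and CO, for which the rule used no group label. Means per calf over its scored cells were fitted with limma, using 6 and 89 cells of CO replicates 1 and 2 and 22 and 44 cells of PH replicates 1 and 2. PH replicate 3, with 4 scored cells, was not in the fit. Subclusters were pooled in these means. Subcluster 1 made up 16.7 and 46.1% of the scored cells in CO replicates 1 and 2, and 13.6 and 36.4% in PH replicates 1 and 2. Subcluster 4 made up 0, 5.62, 54.5 and 20.5% in the same order. Whether this mix of subclusters enters the differences below was not tested. At an adjusted p under 0.05, 1 of 4535 rows was called (0.0221%). Its mean natural log value was 1.66 and 1.30 in CO replicates 1 and 2, and 0.37 and 0.47 in PH replicates 1 and 2, so the groups did not overlap. The difference was -1.06 ± 0.22 (SE; limma adjusted p = 0.0156). The mean of 0.58 over the 4 scored cells of PH replicate 3 lay nearer the PH values, but only 1 of those cells was above 0. This row was singled out after its values were seen. It was above 0 in 5 of 6 scored cells of CO replicate 1 and in 56.2, 18.2 and 25% of those of CO replicate 2, PH replicate 1 and PH replicate 2. In the other T-cells of those calves its means were 0.89, 1.16, 0.67 and 0.64, with PH below CO again, but 1.15 in the other cells of PH replicate 3 lay among the CO values. No row was called with PH replicate 3 included (0), without PH replicate 2 (0) or after quantile normalization (0).

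At an unadjusted p under 0.05, PH was higher for 33 rows (0.728%) and lower for 319 (7.03%). CO and PH calves did not overlap for 313 rows (6.9%) that were higher and 1469 (32.4%) that were lower in PH, so a lack of overlap was common among all rows. The lean to lower values held over all rows, of which 67.1% were lower in PH, with a median difference of -0.05 on the natural log scale. Quantile normalization of the calf means, which removes a shared lean by construction, left 97 higher and 117 lower. The other cells of the same 4 calves gave 0 called rows, with PH higher for 50 rows (1.1%) and lower for 326 (7.19%) at an unadjusted limma p under 0.05, and no overlap for 288 (6.35%) higher and 1871 (41.3%) lower rows. Of the rows in these other cells, 79.2% were lower in PH, with a median difference of -0.045, so the lean was not particular to scored cells. The median standard error of a difference was 0.11 in scored cells and 0.06 in other cells. Without CO replicate 2, where CO replicate 1 and its 6 cells stand alone and are assumed to vary like the PH calves, 784 rows were called.

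Whether PH and CO differed more in scored than in other cells was tested on the difference of means, scored minus other, in the same 4 calves. Subclusters were pooled in both means, and whether their mix enters the difference was not tested. At an adjusted p under 0.05 by limma, 8 of 4535 rows (0.176%) were called, and PH was above CO in 4 and below it in 4. At an unadjusted p under 0.05, 97 rows (2.14%) were higher and 133 (2.93%) lower. In CO replicate 1 the difference of the 8 rows was 0.29 to 0.76 in size, against 0.00 to 0.14 in CO replicate 2, and CO replicate 1 is the calf with 6 scored cells. Without CO replicate 1 no row was called (0), and without PH replicate 1 none was (0). None was called with PH replicate 3 included (0), with a pseudocount of 0.1 on the log2 scale (0), or without trend and robust estimation (0).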

How the data were processed

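Droplet libraries (10x 3′ v2) of 1 calf each were processed by the authors, and the submitters' processing notes name Cell Ranger 2.1.1, Seurat 4.0 and the genome build ARS-UCD1.2. The filters on cells were not stated in these sources. The authors deposited, per T-cell, UMI and gene counts, mitochondrial percent, S and G2/M score, and cluster labels, and a table of natural log values of SCTransform-corrected count plus 1. All nonzero values gave whole corrected counts (100% within 0.001), which are corrected and not raw counts, so no count model was used. 

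Group means per calf were compared by exact permutation, and scored minus other cells by exact sign flips over calves, in python 3.11.15 with numpy 2.4.6. Benjamini-Hochberg adjustment covered 7 tests. A stratum of calf and subcluster needed at least 2 scored and 2 other cells. The depth of cells with both scores was compared within calf only. Rows were fitted with limma 3.58.1 (trend and robust) in R 4.3.3. The limma fit was tested on simulated data, and the exact tests on small fixed sets of values with known answers. Cells and lists were chosen with earlier results of these data known. No gene is named because rows carry no names, so the planned phase genes and T-cell markers were not used. Intervals cover counting error only. The labels do not say more of how calves were chosen, and each p-value sets a difference against the variation between these few animals. CO and PH share replicate numbers, which name separate calves. Alternatives covered thresholds, depth, calves left out, matching and scaling.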

Additional observations from a re-analysis of the deposited data

Results flagged for a closer look

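The difference between PH and CO in the scored-minus-other contrast passed the limma test for 8 of 4535 rows at an adjusted p under 0.05, which is a test of the difference between the groups itself. CO replicate 1, with 6 scored cells, gave the largest of the 4 calf values in 5 of the 8 rows, and no row was called without it (0). None was called without PH replicate 1 (0), with PH replicate 3 included (0) or without trend and robust estimation (0). Subclusters were pooled in this contrast.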

How the results depend on the processing

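Of 129 alternative values for 10 results, 86 kept their direction and their side of the threshold (counts within 1.5 times). For the 7 results with exact tests, no setting could give a p under 0.05 (smallest possible 0.0625). In those, only the direction could change, so the count of 86 is no measure of stability. PH minus CO in the share of scored cells was -4.94 points at a threshold of 0.05, -1.75 at 0.2 and -0.113 at 0.3, and ran from -0.603 to 7.76 with a calf left out. It was 1.76 at 0.15, 4.65 among cells of middle depth, 5.70 with equal weight for each subcluster and 5.10 without cluster 33. Standardized to the 4 depth classes, with 1 CO calf, it was 0.497. For the S score it was -3.32 at 0.05, -2.10 at 0.2 and -2.43 standardized to the 4 depth classes, and ran from -0.985 to 7.61 with a calf left out. At middle depth it was 5.58, with equal subcluster weights 5.98 and without cluster 33 6.07. For the G2/M score it was -0.573 at middle depth and -0.229 at 0.3, and ran from 1.19 to 5.88 with a calf left out. With equal subcluster weights it was 4.44, standardized to the 4 depth classes 2.55 and without cluster 33 3.05. Depth was -0.061 (log2) for G2/M scores alone and -0.0071 for 1 score alone, and ran from 0.00 to 0.30 with a calf left out and from 0.086 to 0.67 under the other alternatives. Genes at matched depth ran from 0.066 to 0.11 (log2) with a calf left out and from 0.014 to 0.15 otherwise. The mitochondrial difference was 0.0217 points at a threshold of 0.05, 0.102 against cells with both scores under 0, 0.244 for G2/M scores alone, 0.0481 with 1 and 0.0279 with 10 nearest cells, and ran from -0.602 to -0.330 with a calf left out and from -1.84 (both scores) to -0.131 under the rest. The share at lowest minus highest depth ran from -8.11 to 2.76 points with a calf left out. Rows higher in scored cells in every calf ran from 606 to 993 with a calf left out, since fewer calves must share a sign. The causes of the other changes were not tested.

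Rows called for PH against CO in scored cells numbered 0 with at least 3 scored cells per calf, 2 with at least 10, 3 with a pseudocount of 0.1 and 2 with 1, 37 with cell numbers as weights, 0 without trend and robust and 0 after quantile normalization, and from 0 to 784 with a calf left out. For the difference between scored and other cells they numbered 0 with at least 3, 0 with at least 10, 17 with rows above 0 in 5% and 1 in 20%, 0 with a pseudocount of 0.1, 22 with weights and 0 without trend and robust, and from 0 to 362 with a calf left out. Both highest counts were without CO replicate 2.

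Same-numbered calves are separate animals, and r of their deviations was 0.16 over rows in scored cells and 0.04 for scored minus other, with 2 pairs. With the replicate number as a block, 1 and 5 rows were called, and PH minus CO within same-numbered calves was 0.962 points for scored cells, -0.985 for the S score and 2.22 for the G2/M score. The thresholds of 0.3, the splits by score type and the runs without cluster 33 were chosen after the data were seen. Depth and the few scored cells of CO replicate 1 and PH replicate 3 limit every comparison of groups.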
